A study of Mus musculus with 10 samples.

Results

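Amino acid transporters and aminoacyl-tRNA synthetases were examined in glands of 5 QSi5 dams and 5 CBA dams on day 9 of lactation. Of 35 genes listed, 15 were transporters, 19 were synthetases and 1 was Asns, the enzyme that makes asparagine. A gene was taken up where a probe set on the array carried its symbol and no other symbol. By this rule 32 of the 35 genes were represented, by 57 probe sets out of 22626, and Slc43a1, Dars and Mars were not. The rule uses gene symbols and no expression values.

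Amino acid transporters are membrane proteins that carry amino acids from the blood into the secretory cells of the mammary gland, where they are used for milk protein. Aminoacyl-tRNA synthetases join each amino acid to its tRNA, the step that makes it available to the ribosome, and several of them are held together in a multisynthetase complex with small scaffold proteins. When amino acids run short, the kinase GCN2 raises translation of the transcription factor ATF4, which is known to bind C/EBP-ATF response elements near the start of Asns and of many transporter and synthetase genes.

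The QSi5 mice come from Quackenbush-Swiss stock and were bred for fecundity, whereas CBA (CBA/CaH) had no such selection. Both strains are inbred. All dams were in their initial lactation, which was ended by forced weaning when it had lasted 9 days, and RNA was made from a piece of an inguinal gland. Each mouse gave 1 array. The larger MOE430 2.0 chip was used for CBA mice 1, 4 and 5 and QSi5 mice 3, 4 and 5, and the MOE430A 2.0 chip for CBA mice 2 and 3 and QSi5 mice 1 and 2. Only the strains were compared, so litter size, milk yield and any other trait that differs between the strains cannot be told apart from strain here.

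Levels are given as log2 intensities made by RMA, in which a step of 1 is a doubling, and a strain difference is QSi5 minus CBA. A gene with several probe sets stood by its brightest one. A difference was called where the adjusted p was under 0.05 in a limma fit over all 11412 probe sets that passed an intensity minimum, of which 336 (2.94%) were called. Levels of different probe sets are not comparable. In RNA from gland tissue, which mixes cell types, fewer cells of a type and less RNA per cell cannot be told apart. The p-values set a strain difference against the spread between mice within strains, among these 10 mice.

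The genes of milk secretion were strongly detected in every gland. Csn2 (beta-casein) ranged from 13.77 to 13.97 in CBA and from 13.76 to 13.97 in QSi5, and Wap (whey acidic protein) from 14.12 to 14.26 and from 14.16 to 14.25. Lalba (alpha-lactalbumin) differed by 0.40, which was not called (adjusted p = 0.0845, limma). Of 14 luminal and milk genes, 1 was called higher in QSi5 (Muc1, 0.73, adjusted p = 0.0212, limma) and 1 lower (Krt8, -0.83, adjusted p = 0.0161, limma). The mean level of this list, relative to its mean over all mice, ranged from -0.16 to 0.16 in CBA and from -0.14 to 0.07 in QSi5. Of 59 markers of 7 other kinds of cell, 30 were tested and 0 were called by limma, with 2 at an unadjusted p under 0.01 (Fabp4 and Cdh5). Of all tested probe sets, 6.49% reached that p. The part that these markers play in the differences below was not tested.

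Among the transporters, Slc7a5 was lower in QSi5 and no gene was higher. Of the 15 genes, 14 had a probe set and 9 passed the intensity minimum. The 9 tested genes gave 1 call, 5 differences below 0 and a median of -0.08, against a median of 0.00 and 49.1% below 0 over all 7361 tested genes. The share of all tested probe sets called lower in QSi5 was 1.51%, and 1 call among 9 genes is too few to set the group apart from it. At an unadjusted p under 0.01, which 6.49% of all tested probe sets reached, stood 3 transporters, Slc7a5, Slc7a8 and Slc38a2. Of these, Slc7a8 passed the intensity minimum only through CBA, which favours a difference below 0. The strains did not overlap for 1 transporter, Slc3a2, compared with 5.14% of all tested probe sets.

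Slc7a5 (LAT1) is the light chain of an exchanger that brings leucine and other large neutral amino acids into the cell. Its log2 level in the CBA mice was 8.84, 8.45, 9.22, 8.15 and 8.73, and in the QSi5 mice 8.15, 7.33, 7.78, 7.78 and 7.86, in the order of the replicate numbers. Of the QSi5 mice, 4 lay below every CBA mouse and QSi5 mouse 1 met the lowest CBA mouse, with QSi5 mouse 2 the lowest of all. The mean was 8.68 ± 0.40 in CBA and 7.78 ± 0.29 in QSi5 (SD, n = 5 each), a difference of -0.90 (SE 0.20, adjusted p = 0.0297, limma), or 1.86-fold lower. The difference was -0.77 on the MOE430 2.0 chips and -1.09 on the MOE430A 2.0 chips. The call was fragile, since leaving out any one of CBA mice 1, 3 and 5 or QSi5 mice 2, 3, 4 and 5 moved the adjusted p past 0.05.

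Slc3a2 (CD98, 4F2hc) is the heavy chain that carries Slc7a5 and related light chains to the cell surface. The CBA mice had log2 levels of 9.08, 8.20, 8.33, 8.18 and 8.42, and the QSi5 mice 8.02, 8.03, 7.95, 7.93 and 8.05. Every QSi5 mouse lay below every CBA mouse, and CBA mouse 1 stood well above the other CBA mice. The difference was -0.45 (SE 0.16, 95% interval -0.79 to -0.11), which was not called at an adjusted p of 0.187 (limma). Without CBA mouse 1 the difference was -0.29, and it was -0.58 on the MOE430 2.0 chips and -0.24 on the MOE430A 2.0 chips.

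Slc7a8 (LAT2) is another light chain of Slc3a2 and carries neutral amino acids. It read 4.54, 4.38, 4.67, 4.68 and 4.89 in CBA and 4.11, 3.68, 4.41, 4.14 and 4.09 in QSi5 on the log2 scale, near the intensity minimum. All QSi5 mice but mouse 3 lay below the CBA range. The difference of -0.55 (SE 0.14, 95% interval -0.85 to -0.24) missed the threshold at an adjusted p of 0.0641 (limma), and of 21 alternatives it was called in 2, with chip type as a block and without QSi5 mouse 3. Slc7a7, the light chain of the system that exports cationic amino acids, differed by 0.33 (95% interval -0.02 to 0.67) and was not called either. The 4 tested genes of this group of light chains and their heavy chain had 3 differences below 0 and a median of -0.50. Since Slc7a8 was tested only through its higher CBA level, these values do not stand as a result about the group.

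Slc38a2 (SNAT2) takes up small neutral amino acids with sodium and is known to rise when amino acids are scarce. It read 8.18, 8.36, 8.59, 9.24 and 8.83 in the CBA mice and 9.16, 8.91, 9.40, 9.24 and 9.76 in the QSi5 mice. The strains overlapped, with CBA mouse 4 level with QSi5 mouse 4, and 2 QSi5 mice lay above every CBA mouse. The difference was 0.66 (SE 0.21, 95% interval 0.21 to 1.11, adjusted p = 0.134, limma). It was the largest difference above 0 among the tested transporters, and of 22 alternatives only the one without CBA mouse 4 called it.

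The remaining transporters did not differ beyond the spread between mice. Slc1a5 (ASCT2), an exchanger of glutamine and other neutral amino acids, read 4.26, 5.09, 5.01, 5.03 and 3.80 in CBA and 4.53, 4.36, 4.43, 4.28 and 4.18 in QSi5. The CBA mice spanned the whole QSi5 range, and the difference was -0.28 (95% interval -0.78 to 0.22). For Slc38a1 and Slc38a3, which carry glutamine and other neutral amino acids with sodium, the differences were 0.12 (95% interval -0.14 to 0.38) and -0.08 (95% interval -0.37 to 0.20). Slc1a1, a carrier of glutamate and aspartate, had a difference of 0.04 (95% interval -0.26 to 0.33).

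Below the intensity minimum in both strains were Slc7a1 and Slc7a2, which import cationic amino acids, Slc7a11, which exchanges cystine for glutamate, Slc6a6, the taurine carrier, and Slc6a14, a carrier of broad range. These 5 genes were not tested. Together with 2 further probe sets of Slc1a1 they gave 12 untested probe sets, with single values from 1.87 to 4.36 on the log2 scale. Of a further 42 amino acid and peptide transporters, 26 had a probe set, 9 were tested and 0 were called, and none of these reached an unadjusted p under 0.01.

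**Figure D1:**
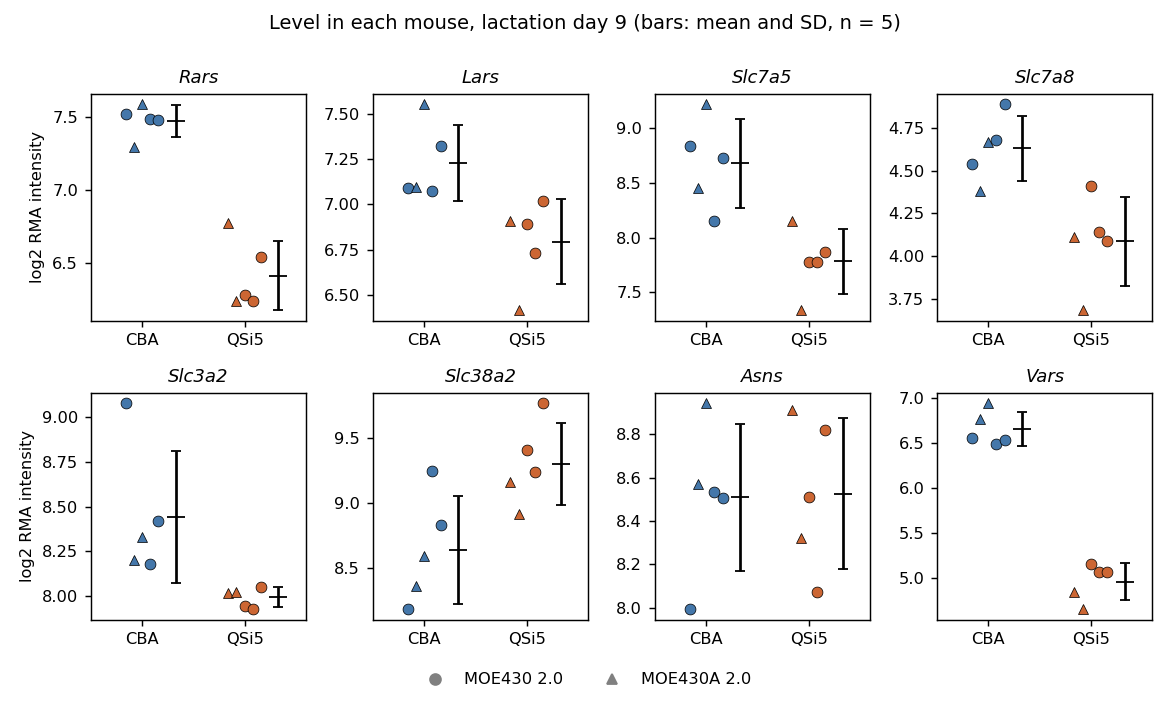
Log2 RMA intensity of 8 genes (vertical axis, 1 scale per gene, not starting at 0) in each CBA and QSi5 mouse. Points are mice in the order of their replicate numbers, circles MOE430 2.0 and triangles MOE430A 2.0 chips, and bars are the mean and SD of 5 mice. The strains do not overlap for Rars, Lars, Slc3a2 and Vars, whereas they overlap fully for Asns.

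Among the synthetases, Rars was lower in QSi5 and most other genes lay slightly below 0 without being called. Of 19 genes, 17 had a probe set, and all 17 were tested on 29 probe sets. There was 1 call (Rars, lower), 0 genes were called higher, and 16 were not called. The difference was below 0 for 16 of 17 genes and for 28 of 29 probe sets, with a median of -0.19 and a range from -1.06 to 0.22 over the genes. The number of genes below 0 was 14 of 17 after a further quantile normalization of the arrays. Over all tested genes 49.1% lay below 0, and 2.94% of all tested probe sets were called. An unadjusted p under 0.01 (6.49% of all tested probe sets) and strains that did not overlap (5.14%) were both found for 2 genes, Rars and Lars.

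Rars charges tRNA with arginine and is a member of the multisynthetase complex. Its log2 level was 7.52, 7.29, 7.59, 7.48 and 7.48 in the CBA mice and 6.77, 6.24, 6.27, 6.23 and 6.54 in the QSi5 mice. The 2 ranges lay far apart, and QSi5 mouse 1 came closest to the CBA mice. The means were 7.47 ± 0.11 and 6.41 ± 0.24 (SD, n = 5 each), a difference of -1.06 (SE 0.12, adjusted p = 0.000382, limma), or 2.09-fold lower. The difference was -1.15 on MOE430 2.0 and -0.94 on MOE430A 2.0 chips. It was called in 21 of 22 alternatives and missed the threshold only on the 4 MOE430A 2.0 arrays (adjusted p = 0.252, limma).

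Lars, the leucine enzyme of the same complex, read 7.09, 7.10, 7.55, 7.08 and 7.32 in CBA and 6.91, 6.41, 6.89, 6.73 and 7.02 in QSi5. The strains were separated by a narrow gap between CBA mouse 4 and QSi5 mouse 5. The difference was -0.43 (SE 0.14, 95% interval -0.74 to -0.13, adjusted p = 0.142, limma) and was not called. Eprs, a fused enzyme for glutamate and proline, read 7.30, 7.55, 8.20, 7.39 and 7.76 in CBA and 7.39, 6.81, 7.10, 7.00 and 7.37 in QSi5 on its brightest probe set. QSi5 mice 1 and 5 lay within the CBA range. The difference was -0.51 (95% interval -0.89 to -0.12, adjusted p = 0.185, limma), and the other probe sets of Eprs gave -0.21 and -0.38.

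Of the 8 listed members of the multisynthetase complex, 6 were tested, and all 6 (Eprs, Iars, Kars, Lars, Qars and Rars) had differences below 0, with a median of -0.37 and 1 call. All tested synthetases but Cars (16 of 17) lay below 0, so this direction was not particular to the complex. Of all tested probe sets, 2.94% were called, and 1 call among 6 genes is too few to set the complex apart. Iars, the isoleucine enzyme, gave -0.32 and -0.05 on its probe sets. Qars, for glutamine, gave -0.27, -0.23 and -0.13. Kars, for lysine, gave -0.08 (95% interval -0.38 to 0.21). Apart from Rars no member of the complex was called, and the intervals of Iars, Kars and Qars reached across 0.

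The synthetases fall into classes I and II by the fold of their catalytic domain. In class I, 7 genes were tested with a median of -0.27, and in class II 9 genes were tested with a median of -0.09 and 9 differences below 0. The class I enzymes outside the complex were Cars (cysteine, 0.22, 95% interval -0.10 to 0.53), Wars (tryptophan, -0.19 and -0.04) and Yars (tyrosine, -0.04). In class II both subunits of the phenylalanine enzyme were measured, with -0.09 for Farsa and -0.39, -0.16 and -0.53 on the probe sets of Farsb. The asparagine enzyme Nars gave -0.29 and -0.09. The other class II enzymes, Tars (threonine, -0.19), Hars (histidine, -0.17 and -0.25), Gars (glycine, -0.08), Aars (alanine, -0.07 and -0.15) and Sars (serine, -0.01 and -0.22), were not called, with intervals across 0 for every probe set.

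Asns did not differ beyond the spread between mice. Its log2 level was 7.99, 8.57, 8.94, 8.53 and 8.50 in CBA and 8.91, 8.32, 8.51, 8.07 and 8.82 in QSi5 on the brighter of its 2 probe sets. The strains overlapped over nearly their whole ranges. The difference was 0.02 (SE 0.19, 95% interval -0.40 to 0.44), and the other probe set gave 0.05 (95% interval -0.32 to 0.42). The intervals leave room for differences from -0.40 to 0.44 on the log2 scale.

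**Figure D2:**
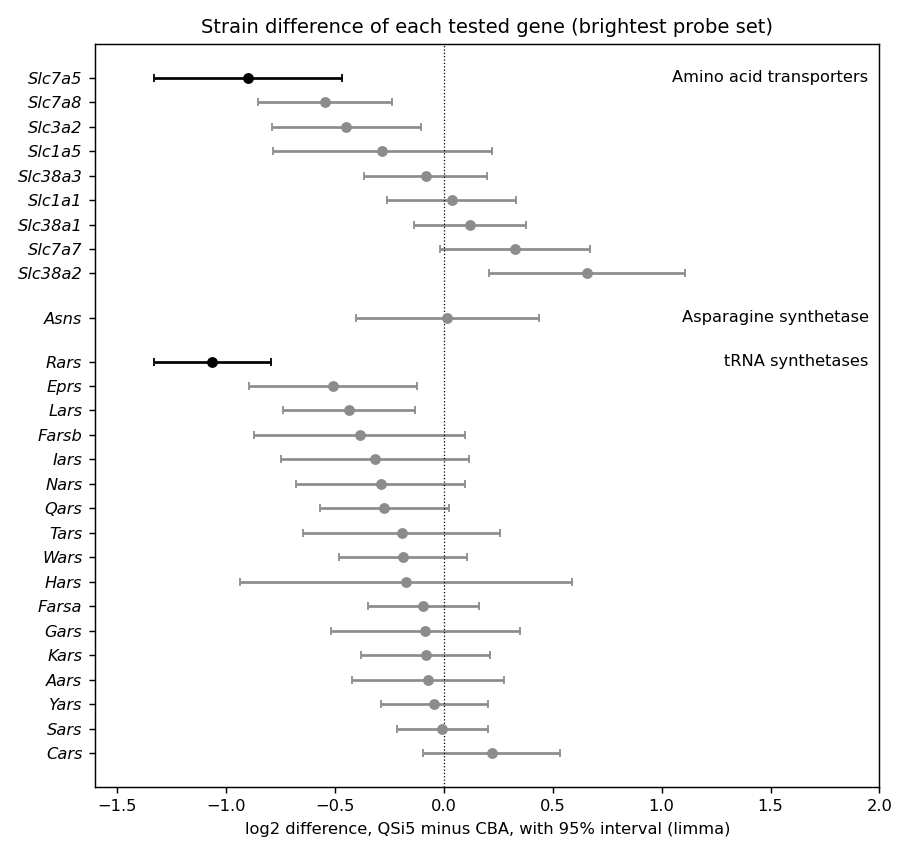
Strain difference (horizontal axis, log2, QSi5 minus CBA) of the 27 tested genes on their brightest probe sets, with 95% limma intervals over 10 mice. Black marks the called genes Rars and Slc7a5, and grey the others. All synthetases but Cars lie left of 0, while the transporters lie on both sides.

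Vars, the valine enzyme of the cytosol, was not on the list of 35 but belongs to the same family, and its difference was larger than that of Rars. It read 6.56, 6.77, 6.94, 6.49 and 6.54 in CBA and 4.85, 4.65, 5.16, 5.07 and 5.07 in QSi5. The strains were more than a full log2 step apart at their nearest mice. The difference was -1.70 (SE 0.13, adjusted p = 7.01e-06, limma) and was called in 22 of 22 alternatives. The scaffold genes of the multisynthetase complex, Aimp1 and Aimp2, gave -0.34 (adjusted p = 0.291, limma) and -0.37 (adjusted p = 0.0888, limma), and the strains did not overlap on this probe set of Aimp2. On its other probe set, with -0.26 (adjusted p = 0.41, limma), they overlapped. The third scaffold gene, Eef1e1, gave 0.24. Of 17 mitochondrial synthetases 5 were tested and 0 were called, with none at an unadjusted p under 0.01.

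Rars, Slc7a5 and Vars were each measured by 1 probe set, so no other probe set of these genes could be compared. Probe sets of 1 gene disagreed elsewhere in these data. Phgdh, the gene of the enzyme that opens serine synthesis, had a difference of -3.64 on 1 probe set and from -0.32 to -0.20 on 3 others, among them the brightest. The difference of -3.64 was called (adjusted p = 1.49e-07, limma), and those on the 3 others were not. The amino acid response genes, 28 in the list, were mostly not called. By their brightest probe sets 25 were tested, with 1 called lower (Trib3, a pseudokinase induced by ATF4), 0 called higher, 12 below 0 and a median of 0.00. Of all tested probe sets, 1.51% were called lower, and 1 call among 25 genes is too few to set the list apart from it. Trib3 gave -0.87 (adjusted p = 0.0077, limma) and -0.75 (adjusted p = 0.0036, limma) on its 2 probe sets. Atf4 itself was not called, with -0.33 on its brightest probe set (adjusted p = 0.559, limma) and -0.60 and 0.01 on the others. Eif4ebp1, a repressor of cap-dependent translation, was the other gene at an unadjusted p under 0.01, with -0.43 (adjusted p = 0.14, limma). That unadjusted p was reached by 6.49% of all tested probe sets.

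A pair of mice stood apart across most of the synthetases. The mean over the 17 genes, each taken relative to its own mean over the 10 mice, was 0.04, 0.01, 0.41, 0.09 and 0.04 in the CBA mice and 0.10, -0.44, -0.10, -0.22 and 0.07 in the QSi5 mice, on the log2 scale. CBA mouse 3 was the highest and QSi5 mouse 2 the lowest of all, and the strains overlapped, since QSi5 mice 1 and 5 lay above most of the CBA mice. CBA mouse 3 and QSi5 mouse 2 were singled out after their values were seen. CBA mouse 3 was the highest CBA mouse for 11 of 17 synthetases, compared with 27.0% of all tested probe sets. QSi5 mouse 2 was the lowest QSi5 mouse for 11 of 17 synthetases and for 5 of 9 transporters, compared with 31.1% of all tested probe sets.

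These mice bear on the group as a whole. Without QSi5 mouse 2 the median of the synthetases was -0.13 with 11 of 17 genes below 0, and without CBA mouse 3 it was -0.16 with 13 of 17 below 0. On the MOE430 2.0 arrays alone, which hold neither mouse, it was -0.10 with 11 of 17 below 0. On the MOE430A 2.0 arrays alone, which hold both, it was -0.34 with 16 of 17 below 0, and without QSi5 mouse 1 it was -0.29 with 16 of 17 below 0. With weights for array quality, 11 of 17 were below 0 as well. Rars was called in each of these settings except on the MOE430A 2.0 arrays alone. CBA mouse 3 also had the widest gap between 3′ and 5′ control probe sets, 3.28 for Gapdh and 3.998 for beta-actin, against up to 2.28 and 3.23 in the other CBA mice. The QSi5 mice ranged from 1.52 to 1.84 and from 1.98 to 2.56, with QSi5 mouse 2 at the top of both ranges. On both controls CBA mice 2, 3 and 5 lay above every QSi5 mouse, while CBA mouse 4 lay below every QSi5 mouse (1.11 and 1.63). The part of RNA quality in the synthetase levels of these mice, or in the strain difference of any gene, was not tested.

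**Figure D3:**
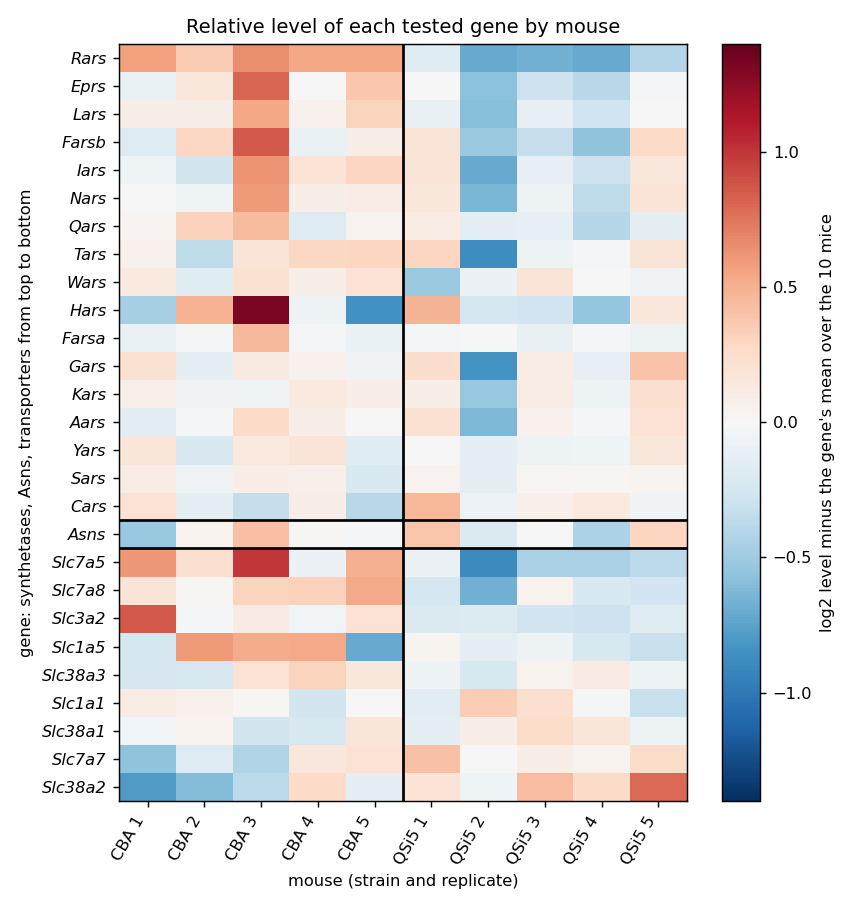
Log2 level of each tested gene in each mouse minus the gene's mean over the 10 mice (colour, red higher and blue lower), with genes as rows and mice as columns. CBA mouse 3 is red and QSi5 mouse 2 blue for most synthetases in the upper block, while the row of Rars splits by strain.

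In QSi5 mouse 2 the low levels were not shared evenly among the synthetases. Gars read 5.85 in that mouse and 6.94, 6.79, 6.58 and 7.09 in the other QSi5 mice, 0.995 below their mean. Tars read 5.06 against 6.23, 5.86, 5.90 and 6.11, and Aars 6.83 against 7.68, 7.52, 7.44 and 7.67. Iars lay 0.69 below the mean of the other QSi5 mice, Nars 0.62, Kars 0.61 and Lars 0.47. Farsb lay 0.41 below that mean, Eprs 0.40, Cars 0.22, Hars 0.20, Sars 0.17 and Yars 0.14. Rars, which separated the strains, lay 0.22 below it, and Wars, Qars and Farsa lay slightly above it, by 0.02, 0.02 and 0.05. Over all 7361 tested genes the median of this difference was -0.04, the lowest 5% lay under -0.59 and the lowest 1% under -0.91.

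The promoters of these genes were searched for the letters of the C/EBP-ATF response element, TGATGNAA on either strand, the only motif searched. Windows ran from 250 bases before to 50 after a gene's start in RefSeq on GRCm38.p6. Among the synthetases 12 of 19 genes had a window and 5 of these held a match (41.7%), namely Aars, Gars, Iars, Tars and Yars. Among the transporters 9 had a window and 2 held a match (22.2%), Slc7a7 and Slc7a11, and Asns held a match too. Among all genes with a window, 1219 of 27025 (4.51%) held these letters, as did 3.97% of all windows. Among tested genes with a window, matched by symbol, the share was 160 of 5978 (2.68%). Every match in the windows of the synthetases and Asns is given with its surroundings, so that the letters can be read in place. Whether they have to do with the levels was not tested. Each sequence is written 5′ to 3′ on the strand of its gene, with the match in capitals, and reads TTNCATCA where the letters lie on the opposite strand.
Aars, chr8:111033700-111033767, plus strand: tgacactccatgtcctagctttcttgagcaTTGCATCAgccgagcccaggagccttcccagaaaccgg
Aars, chr8:111033821-111033888, plus strand: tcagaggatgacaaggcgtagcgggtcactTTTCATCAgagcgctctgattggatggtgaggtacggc
Gars, chr6:55037941-55038008, plus strand: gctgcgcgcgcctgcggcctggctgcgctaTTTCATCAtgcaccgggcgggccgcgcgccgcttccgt
Iars, chr13:49682107-49682174, plus strand: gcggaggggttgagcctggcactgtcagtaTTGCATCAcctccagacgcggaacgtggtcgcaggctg
Tars, chr15:11399636-11399703, minus strand: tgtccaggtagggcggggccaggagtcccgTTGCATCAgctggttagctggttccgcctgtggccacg
Yars, chr4:129189876-129189943, plus strand: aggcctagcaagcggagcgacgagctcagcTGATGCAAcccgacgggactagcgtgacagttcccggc
Asns, chr6:7693195-7693262, minus strand: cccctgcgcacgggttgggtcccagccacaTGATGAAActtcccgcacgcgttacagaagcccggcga

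With the annotated start as 0, the 5′ ends of these matches lay between -112 and 9. A match describes letters only, and no binding was measured. Among the tested genes, Slc1a1, Slc38a2, Slc3a2, Slc7a8, Eprs, Farsa, Farsb, Kars, Qars and Sars had a window without these letters. The called genes Rars, Slc7a5 and Vars had no window, nor did Lars, so the search does not cover them. Outside the list of 35, the called gene Trib3 had 1 window, which held 1 match with its 5′ end at 14. Aimp1, Aimp2 and Atf4, which were not called, had windows without these letters.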

How the data were processed

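Mammary gland RNA from 5 CBA and 5 QSi5 mice was hybridised to 1 Affymetrix array per mouse. Values were deposited by the authors as log2 intensities after RMA (affy package), with both chip types normalized together over their shared probe sets by means of matchprobes. Versions are not given in the sources used here. The methods name the MOE430A 2.0 chip and the right gland, while the sample records give both chips. Strains were taken from the sample records.

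The platform annotation gave a single symbol to 20380 of the 22626 probe sets that are not controls, several symbols to 691 and none used here to 1555. Matching by Entrez identifier to RefSeq worked for 20351 of the former and changed 0 symbols. As in the methods, a probe set was tested where its unlogged intensity passed 20 in at least 1 strain (11412). The intensity of a strain was taken as the mean of its log2 values, turned back to the unlogged scale. The test was limma 3.58.1 under R 4.3.3 with empirical Bayes, two-sided, with strain as the single term and Benjamini-Hochberg adjustment over all tested probe sets. Errors are limma standard errors and intervals are at 95%. The number of arrays limits the precision. Tested on simulated data with 50 changed probe sets of each size among 11412, the fit recovered 21 at a log2 change of 0.5, 45 at 1, 49 at 2 and 50 at 3, with 11 false calls among 176. The simulated noise was independent between probe sets and arrays. It held no chip effect and no mouse that stood apart, so these counts may not hold for the real arrays.

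Members and lists were chosen with earlier results of these data known. Values in every mouse are given for members called, at an unadjusted p under 0.01 or without overlap of the strains, for Asns, Slc7a5, Slc3a2 and Slc1a5, and for the 3 largest differences among transporters and among synthetases. The values of Gars, Tars and Aars in QSi5 mice and the differences of Atf4, Aimp1 and Eef1e1 were picked after they were seen. Alternatives changed the intensity minimum, the normalization, chip type (as a block, or each alone), a replicate block, the variance model, array weights, the choice of probe set and the mice (each left out in turn). Growth, histology and PCR data are not used here.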

Additional observations from a re-analysis of the deposited data

Results flagged for a closer look

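Within a strain, 1 mouse stood apart from the other 4 in 5 of the 58 groups examined (29 genes, 5 mice of each strain), by a gap that chance gives in about 1 of 20 groups, so that 2.9 were to be expected. Aars read 6.83 in QSi5 mouse 2 and from 7.44 to 7.68 in the other QSi5 mice. Sars read 7.57 in QSi5 mouse 2 and from 7.74 to 7.76 in the others. Farsa read 6.69 in CBA mouse 3 and from 6.14 to 6.22 in the other CBA mice. Nars read 9.46 in CBA mouse 3 and from 8.81 to 8.97 in the others. Slc3a2 read 9.08 in CBA mouse 1 and from 8.18 to 8.42 in the others.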

How the results depend on the processing

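The number of called transporters was 1 in the analysis as reported, 2 with chip type as a block (Slc7a5 and Slc7a8), and 0 on the MOE430 2.0 arrays alone and on the MOE430A 2.0 arrays alone. With each mouse left out in turn it ranged from 0 to 2. It was 0 without CBA mouse 1, 3 or 5 or QSi5 mouse 2, 4 or 5, and 2 without CBA mouse 4. Without QSi5 mouse 3 the 1 called transporter was Slc7a8 in place of Slc7a5. Over all 22 alternatives the difference of Slc7a5 ran from -1.09 to -0.76 and was called in 13, with adjusted p-values from 0.00993 to 0.339 (limma). The number of called synthetases was 1 in every alternative but the MOE430A 2.0 arrays alone, which gave 0, and that 1 was Rars, with differences from -1.15 to -0.94. Of all 11412 probe sets 336 were called, against 149 on the MOE430 2.0 arrays alone, 64 on the MOE430A 2.0 arrays alone, and from 220 to 414 with each mouse left out (220 without QSi5 mouse 5, 221 without QSi5 mouse 3). These alternatives hold fewer arrays. Trib3 was called in 20 of 22 alternatives. Among the differences of single genes under these alternatives, 615 kept their side of the threshold, 12 were no longer called, 3 were newly called and 0 of those called changed sign.

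Whether the replicate numbers of the 2 strains pair the mice could not be settled. The correlations of same-numbered mice were -0.25, 0.29, -0.37, 0.06 and 0.02, and only replicate 2 matched best with its own number. Only strain means were removed before correlating, and the mice numbered 1 and those numbered 3 were on unlike chip types. With the replicate number as a block, 260 probe sets were called, among them 1 transporter and 1 synthetase.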
